A study of Schizosaccharomyces pombe with 16 samples.

Results

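The genes at the ends of chromosome I are the 62 of 7019 genes in the count table, coding and non-coding, that lie within 70 kb of either end of fission yeast chromosome I, apart from 2 genes in that span that are not described here. The left end holds 33 of them and the right end 29. They comprise 44 protein-coding genes, 5 pseudogenes, 12 long non-coding RNAs and 1 non-coding gene without a match in the RefSeq annotation. RNA-seq was performed on 16 libraries in 8 groups with 2 replicates each. Wilmar-P is the isolate used for bioethanol production and Wilmar-A its ancestor, from which it was obtained by passaging through molasses fermentations. Both are homothallic (h90). Each was grown in YES with 3% glucose and then held for 4 hours in 1 of 3 YES media. These contained 3% glucose (glucose), a mix of glycerol at 3% with glucose at 0.1% (glucose-deficient) or glycerol at 3% alone (glucose-starved). Wilmar-P and laboratory *S. pombe* (972h-, a heterothallic strain) were also cultured for 4 hours in molasses medium, so the strains of the molasses comparison differ in mating type as well as background. Wilmar-A on molasses and laboratory *S. pombe* on laboratory media were not analysed here. The labels do not say that replicates came from separate cultures, so the p-values below measure the spread between these libraries only.

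In *S. pombe*, the ends of chromosomes I and II share long blocks of nearly identical sequence next to the telomeric repeats, whereas chromosome III ends in ribosomal DNA. The outermost genes are the *tlh* genes, which encode RecQ-type helicases and contain a stretch related to the centromeric repeats from which RNA interference can start heterochromatin. Clr4 methylates histone H3 there, the heterochromatin protein Swi6 binds, and genes placed next to the telomere are silenced. Further inwards lie families of membrane, cell surface and metabolic genes, many of which are known to respond to starvation.

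In the reference genome, which is that of laboratory *S. pombe*, most of the left end cannot be told from other chromosome ends by sequence. The authors report that sequence missing from both Wilmar isolates lies mainly towards the ends of chromosome II. Whether the copies described here are present and as close in the isolates was not analysed. At least 50% of the 50-base stretches of 26 of the 33 left genes occur elsewhere in the reference genome, against 8 of the 29 right genes. A copy of at least 95% identity over at least 80% of the shorter gene was found for 30 of the 62 genes, 22 on the left and 8 on the right. All 30 have such a copy on chromosome II, and 13 have one among the genes of chromosome I itself. The left end is made largely of such copies out to *plb4* at 45.9 kb from the end, followed by a stretch of single-copy sequence around *nhe1*, and then by *fex1* and an L-asparaginase gene with copies on chromosome II. At the right end only the outer 17.2 kb, up to the transporter gene SPAC750.02c, hold such copies, together with the L-asparaginase gene SPAC186.03 at 42.7 kb. Both outermost genes are cut off by the end of the reference sequence, *tlh1* at position 1 and SPAC750.08c at position 5579133.

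Stretches of 60 bases, taken from the reference (RefSeq ASM294v3) and read 5′ to 3′ on each gene's own strand, show how close the copies are that the results below turn on. Capitals mark the bases that differ within a set. The first set holds the malic enzyme sequences in the stretch where they differ most. They are the same there at both ends of chromosome I and at an end of chromosome II. They differ at 12 of 60 bases from a relative inside chromosome III, SPCC794.12c. Over 1658 aligned bases, SPAC212.09c and this relative are 90.77% identical.
SPAC750.08c (chrI:5578960-5579019, minus strand): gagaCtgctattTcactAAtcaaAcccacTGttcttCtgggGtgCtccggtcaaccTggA
SPAC212.09c (chrI:8702-8761, plus strand): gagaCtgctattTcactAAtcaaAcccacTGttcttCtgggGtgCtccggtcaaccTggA
SPBCPT2R1.07c (chrII:4523787-4523846, minus strand): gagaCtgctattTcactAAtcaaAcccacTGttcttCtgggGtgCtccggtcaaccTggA
SPCC794.12c (chrIII:276027-276086, minus strand): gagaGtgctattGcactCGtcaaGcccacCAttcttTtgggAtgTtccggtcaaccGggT

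The second set shows *tlh1* and its copy at the right end of chromosome II, *tlh2*, which are 99.98% identical, around a differing base.
*tlh1* (chrI:5331-5390, minus strand): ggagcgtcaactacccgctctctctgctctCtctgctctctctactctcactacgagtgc
*tlh2* (chrII:4527157-4527216, plus strand): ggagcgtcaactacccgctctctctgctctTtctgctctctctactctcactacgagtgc

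The third set shows the stretch in which the 2 aldo-keto reductase genes, one at each end and 93.17% identical, differ most, at 14 of 60 bases.
SPAC977.14c (chrI:60438-60497, minus strand): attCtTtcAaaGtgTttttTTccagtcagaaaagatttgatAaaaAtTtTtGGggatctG
SPAC750.01 (chrI:5555986-5556045, plus strand): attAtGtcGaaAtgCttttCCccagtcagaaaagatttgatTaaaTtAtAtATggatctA

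The deposited counts followed this sharing for some pairs and not for others. SPAC212.12 on the left and SPAC750.07c on the right are identical over 372 bases, and their counts were equal in 13 of 16 libraries, from 5 to 139 and from 5 to 122. The transmembrane helix genes *ftm1* (left) and *ftm4* (right), 99.76% identical, had count ratios of left over right between 0.919 and 1.09. SPAC212.09c, a malic enzyme pseudogene, contains all 687 bases of SPAC750.08c, and its counts were 1.27 to 2.06 times those of the shorter gene. SPAC212.01c and SPAC750.06c (99.76% identical) had ratios between 0.457 and 1.22, which differed by strain. In laboratory *S. pombe* the left gene had more counts (139 and 341 against 114 and 293), and in every Wilmar library it had fewer. *ftm2* (left) and *ftm3* (right), identical over 441 bases, had ratios between 1.12 and 7.80 in the 10 libraries where both exceeded 3 counts. The aldo-keto reductase genes, which differ enough to be told apart, had ratios between 1.61 and 3.90. SPAC212.12 and SPAC750.07c, *ftm1* and *ftm4*, and the malic enzyme pair are each taken as one measurement rather than 2. SPAC212.01c and SPAC750.06c did not move together across strains, so they are neither one measurement nor 2 separate ones. For copies this close, neither the end of chromosome I nor the chromosome from which the RNA came can be read from the counts. The DNA copy number of these blocks in each strain was not analysed here. Nor were differences of the Wilmar isolates from the reference sequence, to which the reads of all strains were aligned.

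**Figure D1:**
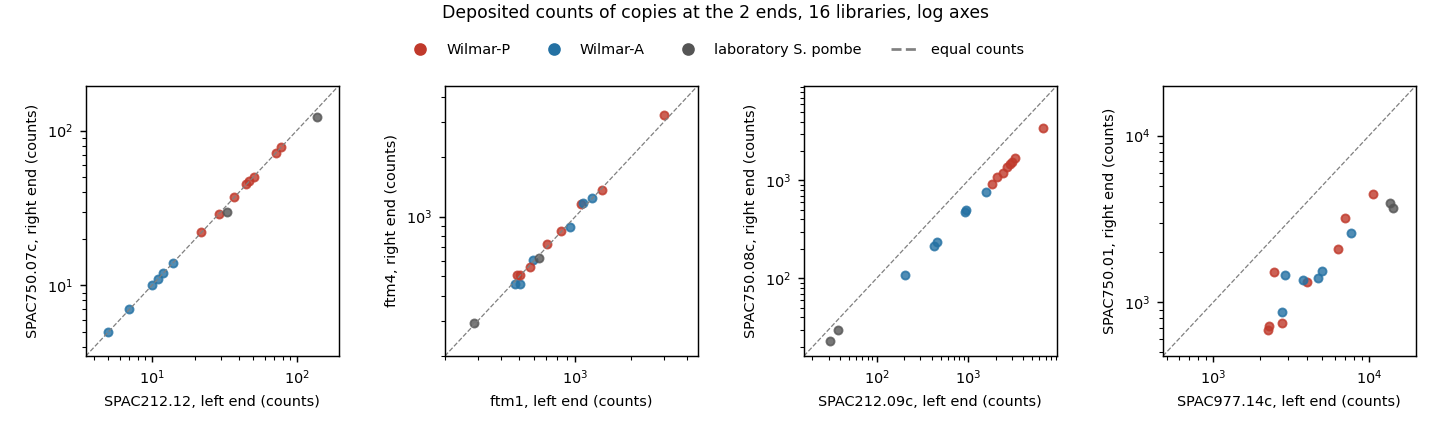
Deposited read counts of 4 genes of the left end (x axis) against their copies at the right end (y axis) in the 16 libraries, on log axes, coloured by strain, with the line of equal counts dashed. SPAC212.12 and SPAC750.07c fall on the line in 13 libraries, *ftm1* and *ftm4* lie close to it, and the aldo-keto reductase genes scatter below it with ratios between 1.61 and 3.90.

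The libraries held between 13246648 and 18164249 counts, of which the genes at the ends of chromosome I took between 0.100% and 0.424%. The galactose genes *gal1*, *gal7* and *gal10*, on chromosome II, served to check the strain labels. They had at most 4 counts in any of the 14 Wilmar libraries and between 40 and 272 in those of laboratory *S. pombe*. The authors give these genes as absent from both isolates, so the check cannot tell Wilmar-P from Wilmar-A. Replicate 1 is labelled as unstranded for Wilmar-P in glucose and for Wilmar-P and Wilmar-A in glucose-deficient medium, and the other 13 libraries are labelled as stranded. The share of counts in long non-coding genes was 8.33% to 8.65% in these 3 libraries and in Wilmar-A glucose replicate 1, against 1.14% to 2.20% in the other 12, so the last of these goes against its label. The same split was visible among the end genes. SPNCRNA.136, antisense to SPNCRNA.601, had between 83 and 173 counts in these 4 libraries and at most 2 in any other, and SPNCRNA.281 had 20 to 41 against 0 to 16. Results that rest on Wilmar-A glucose replicate 1 are therefore given also with this library treated as unstranded (the relabelled library below). Of the 62 genes, 51 passed edgeR's expression filter, 29 on the left and 22 on the right. The 11 others never exceeded 13 counts in a library, and comprised 5 coding genes, 2 pseudogenes and 4 non-coding genes. One of them, the left pseudogene SPAC212.07c, had 0 counts in all 14 Wilmar libraries and 2 and 6 in those of laboratory *S. pombe*.

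Levels are given as CPM (counts per 1e6 counts) scaled by the TMM factors, and 3 counts, the smallest number taken as detected, correspond to between 0.138 and 0.272 CPM, which covers counting error only. Each end was led by metabolic genes lying away from the outermost copies. Per kb of gene length and averaged over all libraries, the highest coding genes of the left end were the aldo-keto reductase gene SPAC977.14c (296 CPM per kb) and the L-asparaginase gene SPAC977.12 (81.3 CPM per kb). On the right they were *yhb1*, whose nitric oxide dioxygenase detoxifies nitric oxide (163 CPM per kb), and the aldo-keto reductase gene SPAC750.01 (127.6 CPM per kb). The summed level of the left end was between 630 and 1014 CPM in the 8 glucose and glucose-deficient libraries, between 1059 and 1517 CPM in the 4 glucose-starved libraries and between 1335 and 1985 CPM in the 4 molasses libraries. That of the right end was between 285 and 476 CPM, between 531 and 1469 CPM and between 1340 and 1997 CPM in the same libraries. A large part of the molasses sums came from 1 gene at each end. Without SPAC977.14c the left end had between 754 and 1312 CPM in glucose-starved medium and between 522 and 1138 CPM on molasses, and without *yhb1* the right end had between 487 and 1448 CPM and between 345 and 814 CPM. In Wilmar-P the rest of each end was still higher on molasses than in glucose and glucose-deficient medium. It had 1138 and 780 CPM against 658 to 762 CPM on the left, and 814 and 580 CPM against 284 to 395 CPM on the right. Among the genes tested, the group with the highest mean was glucose-starved Wilmar-P for 13 of 29 genes on the left and 11 of 22 on the right. Glucose-starved Wilmar-A was the highest group for 3 left genes and 1 right gene. Wilmar-P on molasses was highest for 4 genes at each end, and laboratory *S. pombe* on molasses for 6 and 3.

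**Figure D2:**
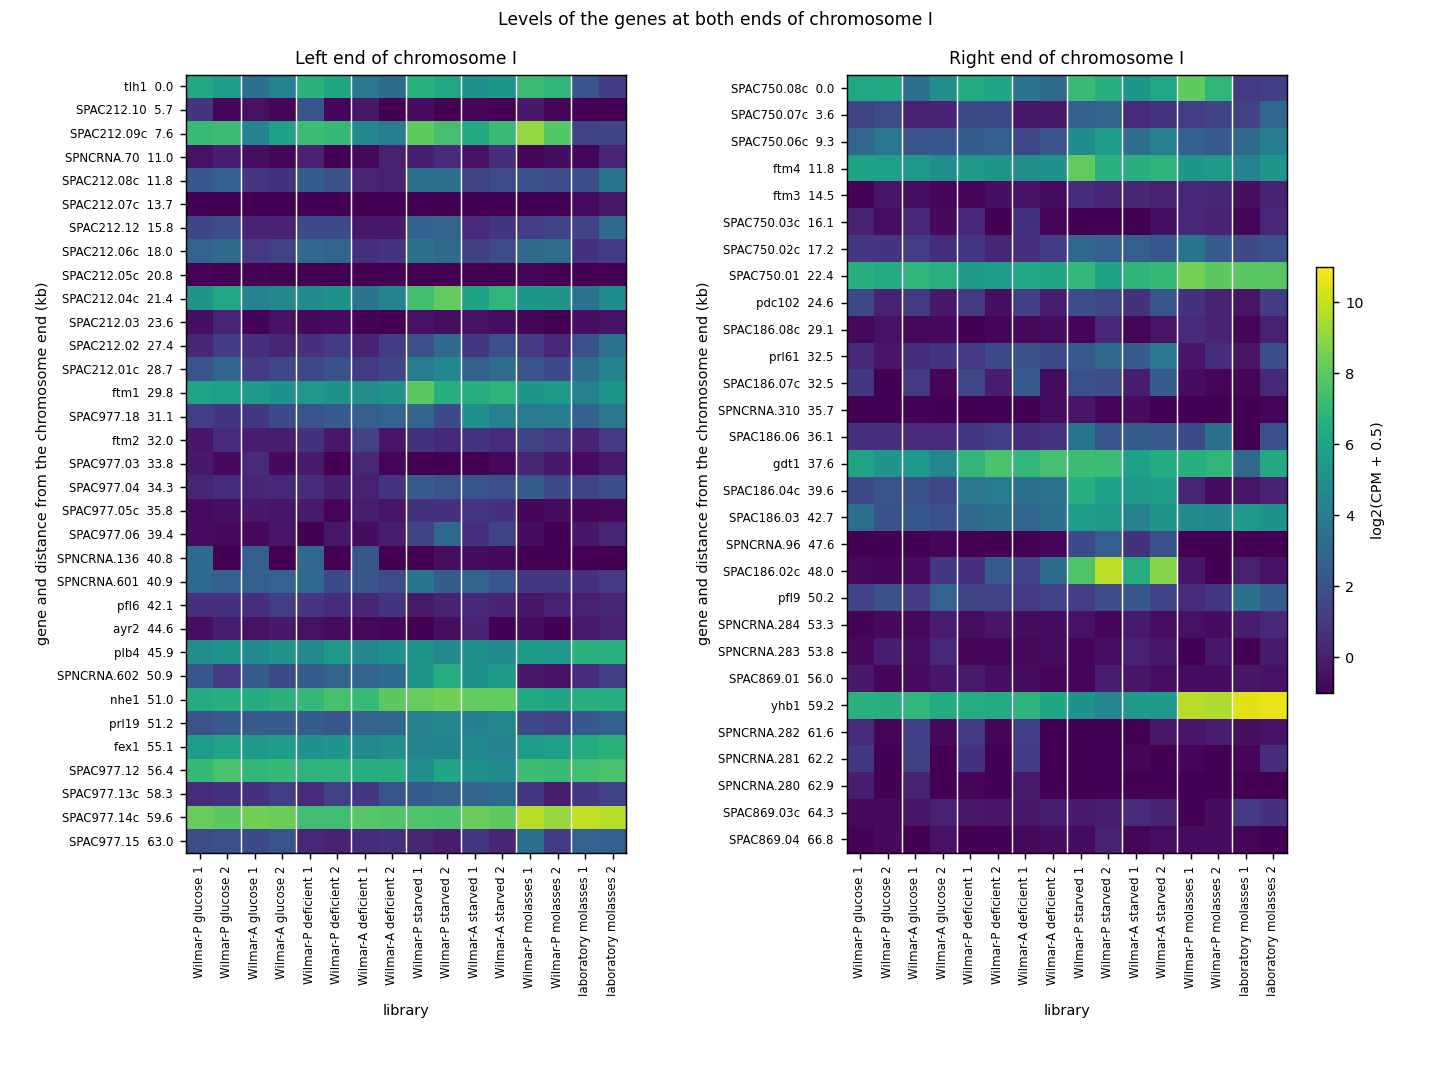
Level of each of the 62 genes (rows, ordered from the chromosome end inwards, with the distance from the end in kb) in each of the 16 libraries (columns, white lines between groups), as log2(CPM + 0.5), for the left and the right end. *tlh1* and the malic enzyme copies are low in laboratory *S. pombe*, the SPAC186.02c row is bright only in the 4 glucose-starved libraries, and *yhb1* and SPAC977.14c are brightest on molasses.

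The first comparison asked how the end genes differ on molasses between the industrial isolate and laboratory *S. pombe*. The outermost helicase and malic enzyme genes were higher in Wilmar-P, and a few genes further in were lower. On the left, 3 of 29 genes were significantly higher and 2 lower (a log2 fold change beyond 1 in either direction with an edgeR adjusted p below 0.05), and on the right 1 of 22 was higher and 1 lower. Among all 6662 genes tested, 0.645% were called higher and 2.46% lower. The count of 7 end genes was 14 without laboratory replicate 1, 4 without Wilmar-P molasses replicate 1 and 3 without replicate 2. The share of all genes was not given for these fits, so their counts show only the dependence on single libraries. The median log2 fold change was -0.25 on the left and -0.10 on the right, against -0.01 over all genes, so the ends as a whole were not shifted upwards. In a bulk sample a change in the number of cells expressing a gene and a change in RNA per cell cannot be told apart.

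*tlh1* (left, outermost) was measured at 147 and 116.1 CPM in the Wilmar-P molasses libraries and at 4.10 and 1.71 CPM in those of laboratory *S. pombe*. The log2 fold change was 5.51 ± 0.45 (fold changes are given with their standard error where an error is printed), with an adjusted p of 0.00017 by edgeR. Its copy *tlh2* is 99.98% identical, so these reads can come from either gene. SPAC212.09c reached 525 and 227 CPM in Wilmar-P against 2.08 and 2.31 CPM, a log2 fold change of 7.41 ± 0.70 (adjusted p = 0.000245 by edgeR). SPAC750.08c, the malic enzyme gene at the tip of the right end, had 270.0 and 115 CPM against 1.54 and 1.83 CPM, with a log2 fold change of 6.83 ± 0.68 (adjusted p = 0.00037 by edgeR). Malic enzymes convert malate to pyruvate. Since SPAC750.08c lies wholly within SPAC212.09c, the 2 values are one result. These 3 calls held under all 23 alternatives, with log2 fold changes of 5.003 to 6.264, 6.69 to 7.90 and 6.09 to 7.32.

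SPAC212.06c (left, 18.0 kb from the end) encodes a DNA helicase-like protein, and 51.6% of its 891 bases align with *tlh1*. The best match spans 263 bases at 98.48% identity, so some reads of SPAC212.06c can come from the *tlh* genes. SPAC212.06c had 8.34 and 9.31 CPM in Wilmar-P and 1.14 and 1.64 CPM in laboratory *S. pombe* (log2 fold change 2.65 ± 0.40, adjusted p = 0.00553 by edgeR). Without Wilmar-P molasses replicate 2 its adjusted p was 0.0542 (edgeR). Of the genes between these, the pseudogene SPAC212.10 had 5 and 1 counts in Wilmar-P and 0 in both laboratory libraries and did not pass. SPAC212.08c, a GPI-anchored protein gene at 11.8 kb, had 3.57 and 2.84 CPM in Wilmar-P against 3.22 and 11.99 CPM, and SPAC212.12 had 1.75 and 2.29 CPM against 2.22 and 8.46 CPM, so that the groups overlapped for both.

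Lower in Wilmar-P on the left were *plb4*, a phospholipase gene with an identical copy on chromosome II, and SPAC212.01c, an uncharacterized gene. *plb4* had 46.2 and 42.1 CPM in Wilmar-P and 104.9 and 99.6 CPM in laboratory *S. pombe* (log2 fold change -1.21 ± 0.24, adjusted p = 0.024 by edgeR). In the 12 libraries on laboratory media it lay between 22.6 and 41.99 CPM, so the molasses libraries of laboratory *S. pombe* stood above every Wilmar library. SPAC212.01c had 3.65 and 2.68 CPM against 9.33 and 20.8 CPM (log2 fold change -2.25 ± 0.47, adjusted p = 0.0295 by edgeR). Its right copy SPAC750.06c did not pass, with 5.88 and 4.57 CPM against 7.66 and 17.8 CPM (-1.29, adjusted p = 0.214 by edgeR). The call of *plb4* was lost without either Wilmar-P molasses library (adjusted p = 0.158 and 0.252) or without laboratory replicate 2 (0.0924 by edgeR), and that of SPAC212.01c without the same libraries (0.163, 0.309 and 0.191 by edgeR) and without any of the 4 glucose-deficient libraries.

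On the right, the gene lower in Wilmar-P was the urea transporter gene SPAC869.03c, 64.3 kb from the end. It had 0 and 2 counts in Wilmar-P and 23 and 19 in laboratory *S. pombe*, a ratio of laboratory over Wilmar-P of 16.9 (95% exact interval 4.41 to 145, counting error only). Its edgeR log2 fold change was -3.96 ± 0.87 (adjusted p = 0.0363), which rests on these few counts and missed the threshold in 15 of 23 alternatives (-3.03, adjusted p = 0.234 by edgeR, without Wilmar-P molasses replicate 1). With the relabelled library, which lowers the estimated spread of the whole fit, 10 end genes passed against 6.06% of all genes. The 3 added genes were all lower in Wilmar-P. They were SPAC212.02, an uncharacterized gene of the left end (1.51 and 0.79 CPM against 3.56 and 10.7 CPM, log2 fold change -2.62, adjusted p = 0.0372 by edgeR), *prl19* and, on the right, *pfl9*, which encodes a cell surface glycoprotein of the DIPSY family (0.87 and 1.42 CPM against 10.1 and 5.05 CPM, log2 fold change -2.72, adjusted p = 0.015 by edgeR).

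*yhb1*, the highest gene of the right end on molasses, did not pass. It had 832 and 760.2 CPM in Wilmar-P and 1394 and 1559 CPM in laboratory *S. pombe* (log2 fold change -0.89 ± 0.28, adjusted p = 0.138 by edgeR), against 21.5 to 122 CPM in all 12 libraries on laboratory media. The aldo-keto reductase genes were also at their highest on molasses. SPAC977.14c had 847 and 555 CPM in Wilmar-P and 955 and 830 CPM in laboratory *S. pombe*, and between 159 and 353 CPM elsewhere. SPAC750.01 had 355 and 253 CPM, 245 and 239 CPM, and between 44.1 and 132 CPM elsewhere. These 3 genes thus differed more between molasses and laboratory media than between strains, although media were compared with molasses only by their levels. *gdt1*, which encodes a member of the GDT1 family of membrane proteins, differed between the laboratory replicates, with 7.59 and 76.1 CPM, against a mean of 103.8 CPM in Wilmar-P, and did not pass (log2 fold change 1.31 ± 0.76, adjusted p = 0.438 by edgeR).

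The second comparison set Wilmar-P against its ancestor Wilmar-A on laboratory media. The same outermost genes had higher levels in Wilmar-P in every medium, though few passed the threshold within a single medium. In glucose, 0 end genes passed (13 of 51 at an unadjusted p below 0.05), against 0.135% of all genes. The count in glucose depended on Wilmar-A glucose replicate 2, without which that group holds only the library that goes against its label. In glucose-deficient medium 2 passed, both on the left and both higher in Wilmar-P, against 0.195% of all genes. In glucose-starved medium 0 passed (10 at an unadjusted p below 0.05), against 0.285% of all genes. DESeq2's Wald test called 6, 7 and 2 end genes in the 3 media, against 6.29%, 0.645% and 0.555% of all genes. With the relabelled library, 1, 4 and 1 end genes passed in edgeR, against 0.27%, 0.405% and 0.36% of all genes.

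The 2 genes were *tlh1* and SPAC212.06c. *tlh1* had 104.1 and 66.3 CPM in glucose-deficient Wilmar-P and 13.5 and 9.004 CPM in Wilmar-A (log2 fold change 2.91 ± 0.39, adjusted p = 0.0114 by edgeR). In glucose it had 74.8 and 48.7 CPM against 9.96 and 18.8 CPM, and in glucose-starved medium 99.6 and 70.1 CPM against 32.6 and 40.7 CPM. All 6 Wilmar-P libraries therefore lay above all 6 Wilmar-A libraries, although the share of all genes that separate in this way was not computed. SPAC212.06c had 7.91 and 6.56 CPM in glucose-deficient Wilmar-P and 1.11 and 1.32 CPM in Wilmar-A (log2 fold change 2.58 ± 0.40, adjusted p = 0.0319 by edgeR), and between 6.55 and 10.2 CPM against 1.48 to 2.90 CPM in the other media, again without overlap. In the fit with the relabelled library it passed in glucose (2.07, adjusted p = 0.0248 by edgeR) and glucose-starved medium (1.95, adjusted p = 0.0319 by edgeR) as well, and SPAC212.09c (2.86) and SPAC750.08c (2.86, adjusted p = 0.0255 for both by edgeR) were added in glucose-deficient medium. Leaving out any 1 of the 4 glucose-deficient libraries ended both glucose-deficient calls, with adjusted p of 0.185 to 0.336 for *tlh1* and 0.194 to 0.774 for SPAC212.06c (edgeR).

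Averaged over the 3 media, a test added after seeing the data, 8 end genes passed and all 8 were higher in Wilmar-P, against 0.21% of all genes called higher and 0.39% called lower. They make up 8 of the 14 genes called higher in the whole genome. Each of the 8 is repeated over more than 50% of its sequence, and they lie within 21.4 kb of the left end and 3.57 kb of the right end. On the left they were *tlh1* (log2 fold change 1.96, adjusted p = 0.00137), the malic enzyme pseudogene SPAC212.09c (1.9, adjusted p = 0.0185), the GPI-anchored protein genes SPAC212.08c (2.24, adjusted p = 0.011) and SPAC212.12 (2.53, adjusted p = 0.0063), the helicase-like gene SPAC212.06c (2.21, adjusted p = 0.000782) and the uncharacterized gene SPAC212.04c (1.32, adjusted p = 0.047), all by edgeR. On the right they were SPAC750.07c (2.53, adjusted p = 0.00612) and SPAC750.08c (1.92, adjusted p = 0.0168 by edgeR), which are copies of left genes in the list. Since copies share reads, the 8 genes stand for fewer independent results, and their number should not be set against the genome share as if they were separate genes. Median log2 fold changes were 0.24 over the 29 left genes and -0.25 over the 22 right genes, against -0.02 over all genes.

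The values in the libraries were as follows. SPAC212.12 had 2.35 to 6.67 CPM in the 6 Wilmar-P libraries and 0.353 to 1.27 CPM in those of Wilmar-A, and SPAC212.08c had 3.49 to 10.4 CPM against 0.543 to 2.99 CPM. For *tlh1*, SPAC212.08c, SPAC212.12, SPAC212.06c and SPAC750.07c all 6 Wilmar-P libraries were above all 6 of Wilmar-A. SPAC212.12 and SPAC750.07c are one measurement, and the share of all genes that separate in this way was not computed, so the separation adds no support to the calls. For SPAC212.09c (131 to 271 CPM against 15.8 to 143 CPM), SPAC750.08c (66.2 to 143 CPM against 8.38 to 69.7 CPM) and SPAC212.04c (26.6 to 279 CPM against 11.8 to 116.1 CPM) the ranges over the media overlapped. Within each medium both Wilmar-P libraries were above both Wilmar-A libraries for these 3 genes. *tlh1* and SPAC212.06c passed in all 23 alternatives. The other calls were lost in 3 to 13 of them, and SPAC212.04c most often. The count was 2 without Wilmar-P glucose replicate 2 or Wilmar-A glucose-deficient replicate 1, 3 without Wilmar-P glucose-deficient replicate 2, 4 without Wilmar-A glucose-starved replicate 1 or glucose-deficient replicate 2, 12 without Wilmar-A glucose replicate 2, and 4 in the 12 libraries that behave as stranded. It stayed at 8 without Wilmar-A glucose replicate 1. The share of all genes was not given for these fits, so their counts show only the dependence on the libraries used. With the relabelled library, 10 passed, against 0.991% of all genes. The 2 added genes were the copies SPAC212.01c (1.13) and SPAC750.06c (1.19, adjusted p = 0.0304 and 0.0286 by edgeR).

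Further in, no difference between the isolates passed with the labels as given. SPAC212.01c, 28.7 kb from the left end, passed in the average with the relabelled library. None of the 20 genes tested with less than 50% repeated sequence passed in any of the 3 media or in their average. Among all genes, 0.135% to 0.285% passed in the single media, and 0.21% were higher and 0.39% lower in the average. At such shares, 0 of 20 says nothing particular about these genes. The calls in the molasses comparison and between the isolates overlap in *tlh1*, SPAC212.06c, SPAC212.09c and SPAC750.08c, and the comparisons use Wilmar-P libraries but no library in common. By level, *tlh1* was lowest in laboratory *S. pombe* (1.71 to 4.10 CPM), followed by Wilmar-A (9.004 to 40.7 CPM) and Wilmar-P (48.7 to 147 CPM), where laboratory *S. pombe* was measured on molasses only, Wilmar-A on laboratory media only and Wilmar-P on both. SPAC212.09c followed the same order (2.08 to 2.31, 15.8 to 143 and 131 to 525 CPM, the last 2 overlapping), whereas the levels of SPAC212.06c overlapped between laboratory *S. pombe* (1.14 to 1.64 CPM) and Wilmar-A (1.11 to 2.90 CPM).

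**Figure D3:**
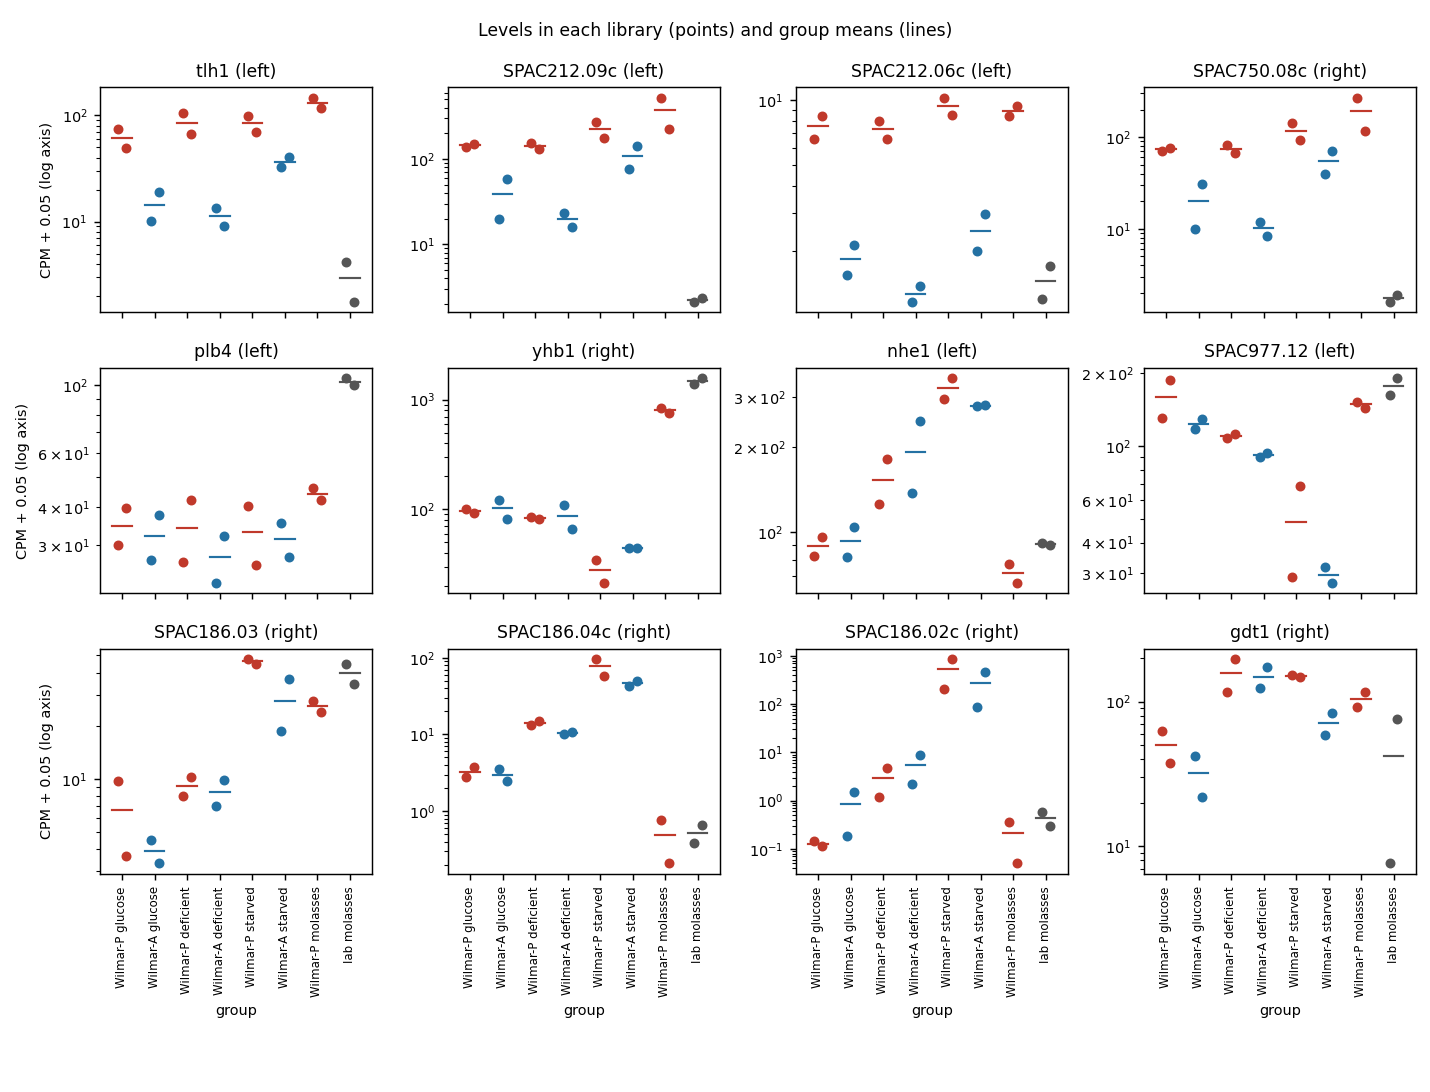
Levels of 12 genes in each library as CPM + 0.05 on a log axis, with 2 points and a line at their mean for each of the 8 groups (Wilmar-P red, Wilmar-A blue, laboratory *S. pombe* grey). *tlh1*, SPAC212.09c, SPAC212.06c and SPAC750.08c are higher in Wilmar-P than in Wilmar-A in every medium, SPAC186.04c and SPAC186.02c rise towards glucose-starved medium, and *yhb1* is highest on molasses.

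The third comparison followed the response to carbon source within each isolate. In glucose-deficient medium few end genes changed. In Wilmar-P 1 of 51 passed, against 2.13% of all genes, and in Wilmar-A 2 passed, against 11.4% of all genes (6.08% with the relabelled library). SPAC186.04c, an uncharacterized single-copy gene of the right end, passed in both. It rose from 2.72 and 3.69 CPM in glucose to 13.1 and 15.0 CPM in Wilmar-P (log2 fold change 2.14 ± 0.43, adjusted p = 0.0313 by edgeR), and from 3.48 and 2.39 CPM to 10.2 and 10.8 CPM in Wilmar-A (1.95 ± 0.46, adjusted p = 0.0281 by edgeR). *nhe1*, the sodium ion/proton antiporter gene of the left end, rose in Wilmar-A from 81.8 and 104.3 CPM to 138 and 248 CPM (log2 fold change 1.26 ± 0.22, adjusted p = 0.0115 by edgeR). Without Wilmar-A glucose replicate 1 the value for *nhe1* was 1.09 (adjusted p = 0.0749 by edgeR), and without glucose-deficient replicate 2 it was 0.93 (adjusted p = 0.463 by edgeR). In Wilmar-P it had 82.8 and 96.1 CPM in glucose and 126 and 181 CPM in glucose-deficient medium, which did not pass. Leaving out single libraries ended the Wilmar-P call of SPAC186.04c in 7 cases, among them either glucose library and either glucose-deficient library of Wilmar-P, and its Wilmar-A call in 5, among them either glucose-deficient library of each isolate.

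In glucose-starved medium the ends responded strongly, and mostly by rising. In Wilmar-P, 10 of 29 left genes rose and 3 fell, and 9 of 22 right genes rose and 1 fell, against 15.8% of all genes called higher and 12.1% called lower. In Wilmar-A, 13 left genes rose and 2 fell, and 9 right genes rose and 1 fell, against 15.3% and 21.1% of all genes. Since copies and overlapping genes can share reads, also across the ends, these counts stand for fewer independent results. They should not be set against the genome shares as if all were separate genes. Among the 20 genes repeated under 50%, 9 rose and 2 fell in Wilmar-P, and 8 rose and 1 fell in Wilmar-A. The median log2 fold change was 1.11 on the left and 1.77 on the right in Wilmar-P, and 1.35 and 1.5 in Wilmar-A, against 0.00 and -0.21 over all genes. With the relabelled library, 25 end genes passed in each isolate, against 32.6% of all genes in Wilmar-P and 30.5% in Wilmar-A. Without this library 24 passed in Wilmar-P (31.8% of all genes) and 19 in Wilmar-A (27.3% of all genes). The difference of the response between the isolates was tested directly, as an alternative added after seeing the data. For starvation and for deficiency, 0 end genes passed in edgeR (1 and 3 at an unadjusted p below 0.05). Among all 6662 genes 0 passed as well, so this says nothing particular about the end genes. The counts depended on the glucose libraries of Wilmar-P, with 8 genes called without replicate 2 and 14 without replicate 1, and on glucose-starved replicate 2, with 15 called in Wilmar-P and 14 in Wilmar-A without it.

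The largest rise was at the right end, 48.0 kb from the tip, in SPAC186.02c. Its product is annotated as a hydroxyacid dehydrogenase, an enzyme class that interconverts keto acids and hydroxy acids. In Wilmar-P its counts were 2 and 1 (glucose), 19 and 66 (glucose-deficient), then 2490 and 9987 (glucose-starved). In Wilmar-A it had 3 and 23, 43 and 114, and 1080 and 5006 counts. On molasses it had 4 and 0 counts in Wilmar-P and 8 and 4 in laboratory *S. pombe*. The ratio of glucose-starved to glucose was 6600 in Wilmar-P (95% exact interval 2260 to 32000) and 374 in Wilmar-A (255 to 573), with intervals that cover counting error only and not the spread between replicates. In edgeR the log2 fold change in Wilmar-A was 8.49 ± 1.24 (adjusted p = 0.000445), or 7.80 with the relabelled library, and that in Wilmar-P had an adjusted p of 0.000342. Both calls held in all 23 alternatives. The replicates differed widely in glucose-starved medium, with 210 and 854 CPM in Wilmar-P and 87.1 and 453 CPM in Wilmar-A, yet both lay far above every other library.

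The non-coding RNA SPNCRNA.96 starts next to SPAC186.02c on the other strand and rose in the same comparison. It had 32 and 64 counts in glucose-starved Wilmar-P against 0 in both glucose libraries, which is at least 24.8-fold higher (mean CPM against the CPM of 3 counts in each glucose library). In Wilmar-A it had 15 and 39 counts against 0 and 1, a ratio of 86.3 (95% exact interval 14.8 to 3470). No other library held more than 1 count. The 122 bases between the deposited ends of this divergent pair are shown because both flanking genes rise together. They are read from the strand of SPAC186.02c (RefSeq ASM294v3), with a match to TGACGT, the core of the site for the stress factor Atf1, in capitals.
Gap (chrI:5531145-5531266, minus strand): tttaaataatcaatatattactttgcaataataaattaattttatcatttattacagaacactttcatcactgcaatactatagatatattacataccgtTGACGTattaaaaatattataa
TGACGT was found once on either strand, and windows of the same length before 5103 protein-coding genes held it in 3.0% of cases. CCCCTC, the stress-starvation response element, and TATAAA had 0 matches, against 0.862% and 25% of windows. These are matches of letters only.

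SPAC186.07c, the second hydroxyacid dehydrogenase gene of the right end (72.24% identical to SPAC186.02c over 825 bases), lies opposite the non-coding RNA *prl61*, and its values followed the library type. In Wilmar-P it had 1.43 and 0 CPM in glucose and 3.37 and 3.08 CPM in glucose-starved medium (log2 fold change 5.43 ± 1.72, adjusted p = 0.0305 by edgeR), where the higher glucose value is the unstranded library. In counts this was 76 against 31, a ratio of 3.89 (95% exact interval 2.53 to 6.11), and without a term for library type the log2 fold change was 2.13 (adjusted p = 0.403 by edgeR). The call was lost in 7 of 23 alternatives. In Wilmar-A it had 1.53 and 0.063 CPM against 0.484 and 4.89 CPM, which passed only with replicate 1 in glucose treated as unstranded (4.82, adjusted p = 0.00556 by edgeR). *prl61* rose in both isolates, from 0.784 and 0.318 CPM to 4.80 and 7.61 CPM in Wilmar-P (log2 fold change 3.58, adjusted p = 0.0289 by edgeR) and from 0.973 and 1.26 CPM to 4.92 and 12.8 CPM in Wilmar-A (2.98, adjusted p = 0.0259 by edgeR).

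Other right genes rose as well. SPAC186.04c reached 95.9 and 58.2 CPM in Wilmar-P (log2 fold change 4.48 ± 0.49, adjusted p = 0.00011 by edgeR) and 42.5 and 50.4 CPM in Wilmar-A (3.98 ± 0.46, adjusted p = 0.000119 by edgeR), so its levels increased from glucose through glucose-deficient to glucose-starved medium without overlap in either isolate. On molasses it lay between 0.158 and 0.715 CPM in both strains. SPAC186.03, an L-asparaginase gene, rose from 9.63 and 3.62 CPM to 47.6 and 44.7 CPM in Wilmar-P (log2 fold change 2.90, adjusted p = 0.00221 by edgeR) and from 4.45 and 3.28 CPM to 18.6 and 36.8 CPM in Wilmar-A (2.83, adjusted p = 0.00101 by edgeR). *pdc102*, which encodes a pyruvate decarboxylase, the enzyme that makes acetaldehyde from pyruvate, had 2.67 and 0.572 CPM in glucose and 3.11 and 2.48 CPM in glucose-starved medium in Wilmar-P. It passed only with the relabelled library (2.28 in Wilmar-P, adjusted p = 0.0276, and 2.84 in Wilmar-A, adjusted p = 0.0121 by edgeR). *gdt1* had between 117 and 197 CPM in the glucose-deficient and glucose-starved libraries of Wilmar-P, against 63.1 and 37.8 CPM in glucose, and 124 and 174 CPM in glucose-deficient Wilmar-A, against 41.8 and 21.98 CPM. It did not pass in any comparison.

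Among the repeated genes of the right end, the transporter gene SPAC750.02c rose from 1.34 and 1.27 CPM to 7.41 and 5.90 CPM in Wilmar-P (log2 fold change 2.38, adjusted p = 0.0116 by edgeR). In Wilmar-A it rose from 1.76 and 1.01 CPM to 5.49 and 4.255 CPM, a call lost in 3 of 23 alternatives. SPAC750.02c shares 503 identical bases with SPAC977.04 on the left, 73.9% of that gene, so these are not separate results. *ftm4* rose from 62.7 and 53.7 CPM to 274 and 99.3 CPM in Wilmar-P (1.72, adjusted p = 0.0164 by edgeR) and from 41.2 and 29.0 CPM to 94.3 and 112 CPM in Wilmar-A (1.55, adjusted p = 0.0143 by edgeR). Its left copy *ftm1* had log2 fold changes of 1.59 and 1.41. Without Wilmar-P glucose-starved replicate 1 the Wilmar-P values were 0.81 for *ftm4* and 0.69 for *ftm1* (adjusted p = 0.151 and 0.254 by edgeR). SPAC750.06c rose by 1.71 and 1.80 on the log2 scale and its left copy SPAC212.01c by 1.60 and 1.88, with 15.99 and 23.8 CPM in glucose-starved Wilmar-P and 5.73 and 9.42 CPM in Wilmar-A. In this comparison, too, *ftm4* and *ftm1* are one measurement. SPAC750.06c and SPAC212.01c are not 2 separate results, since they share most of their sequence.

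The gene of the right end that fell was *yhb1*, from 101 and 92.8 CPM to 34.2 and 21.5 CPM in Wilmar-P (log2 fold change -1.65 ± 0.30, adjusted p = 0.00199 by edgeR) and from 122 and 81.8 CPM to 44.3 and 44.5 CPM in Wilmar-A (-1.20 ± 0.28, adjusted p = 0.00662 by edgeR). With the relabelled library the Wilmar-A value was -0.98, just short of the fold threshold.

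On the left, the clearest responses came from the single-copy stretch and its neighbours at 50.9 to 56.4 kb. *nhe1* rose from 82.8 and 96.1 CPM to 296 and 350.0 CPM in Wilmar-P (log2 fold change 1.58 ± 0.23, adjusted p = 0.000496 by edgeR) and from 81.8 and 104.3 CPM to 279 and 282 CPM in Wilmar-A (1.59 ± 0.21, adjusted p = 0.000252 by edgeR). 2 non-coding RNAs overlap *nhe1* and rose with it. *prl19* lies on the same strand, within the span of *nhe1*, and rose by 2.29 and 2.03 on the log2 scale (adjusted p = 0.000584 and 0.000639 by edgeR). Since reads were counted once for every gene they overlap, its reads can be reads of *nhe1*. SPNCRNA.602 lies on the opposite strand and went from 4.15 and 1.46 CPM to 37.8 and 84.8 CPM in Wilmar-P and from 5.19 and 2.71 CPM to 35.4 and 42.6 CPM in Wilmar-A, with log2 fold changes of 4.60 (adjusted p = 0.000621) and 3.29 (adjusted p = 0.00142 by edgeR). All of these glucose-starved libraries were labelled stranded. The calls of all 3 genes held in every alternative in both isolates.

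*fex1*, which encodes the plasma membrane fluoride export channel, and SPAC977.12, an L-asparaginase gene, lie next to *nhe1* and fell. *fex1* went from 47.6 and 63.5 CPM to 20.5 and 20.7 CPM in Wilmar-P (log2 fold change -1.55 ± 0.20, adjusted p = 0.000244 by edgeR) and from 43.6 and 53.2 CPM to 23.4 and 19.5 CPM in Wilmar-A (-1.17 ± 0.19, adjusted p = 0.000721 by edgeR). SPAC977.12 went from 131 and 188 CPM to 28.7 and 68.4 CPM in Wilmar-P (-1.81 ± 0.35, adjusted p = 0.00258 by edgeR) and from 118 and 129 CPM to 31.6 and 27.3 CPM in Wilmar-A (-2.07 ± 0.34, adjusted p = 0.000816 by edgeR). L-asparaginases release ammonia from asparagine, and the 2 genes of this kind, SPAC977.12 on the left and SPAC186.03 on the right, thus moved in opposite directions. The third left gene that fell in Wilmar-P was SPAC977.15, a dienelactone hydrolase family gene at 63.0 kb (3.00 and 3.37 CPM to 0.673 and 0.427 CPM, log2 fold change -2.55, adjusted p = 0.0293 by edgeR).

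Among the repeated left genes, SPAC977.05c, with a Vel1p domain, rose from 3 and 3 counts to 14 and 13 counts in Wilmar-P (log2 fold change 3.14 ± 0.77, adjusted p = 0.00919 by edgeR). In Wilmar-A it rose from 8 and 5 counts to 17 and 13 counts, a call lost in 11 of 23 alternatives. SPAC977.18, which overlaps *ftm2* on the other strand, rose in Wilmar-A from 1.44 and 2.77 CPM to 34.8 and 18.9 CPM (log2 fold change 3.68 ± 0.62, adjusted p = 0.00103 by edgeR), whereas in Wilmar-P it had 1.80 and 1.27 CPM in glucose and 6.99 and 2.65 CPM in glucose-starved medium and did not pass. The difference of its response between the isolates did not pass (-2.11, adjusted p = 0.784 by edgeR), and neither did that of any of the 6662 genes tested. SPAC212.04c rose from 38.1 and 72.6 CPM to 166 and 279 CPM in Wilmar-P (1.73, adjusted p = 0.014 by edgeR) and from 19.3 and 23.0 CPM to 62.6 and 116.1 CPM in Wilmar-A (2.08, adjusted p = 0.00359 by edgeR). The uncharacterized genes SPAC977.04 (2.26 and 2.24) and SPAC977.06 (4.34 and 3.03) and the single-copy pseudogene SPAC977.13c (1.89 and 2.33) also rose in both isolates on the log2 scale, of which SPAC977.06 had 5 counts over both glucose libraries of Wilmar-P and 119 over both glucose-starved ones. The Wilmar-A call of SPAC977.06 did not hold with the relabelled library (2.39, adjusted p = 0.0721 by edgeR) and was lost in 8 of 23 alternatives, and its Wilmar-P call was lost in 4 (2.67, adjusted p = 0.471, without Wilmar-P glucose replicate 2, and 3.18, adjusted p = 0.117, without glucose-starved replicate 2, by edgeR). The outermost genes also rose in Wilmar-A, *tlh1* by 1.35 (adjusted p = 0.0131), SPAC212.09c by 1.49 (adjusted p = 0.0388) and, on the right, SPAC750.08c by 1.45 on the log2 scale (adjusted p = 0.0417 by edgeR). These calls were lost without Wilmar-A glucose replicate 1, with values of 0.95, 0.88 and 0.83 (adjusted p = 0.066, 0.175 and 0.185 by edgeR).

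**Figure D4:**
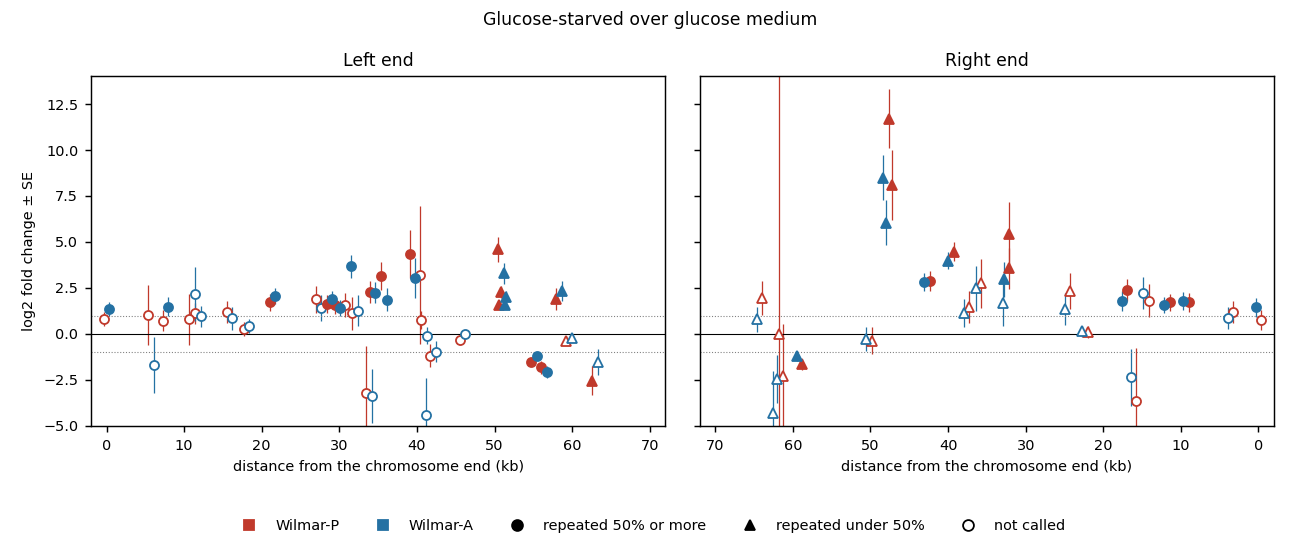
Log2 fold change of glucose-starved over glucose medium in Wilmar-P (red) and Wilmar-A (blue), with standard errors, for the genes tested, against the distance from each end in kb. Filled symbols are called, circles are genes repeated over at least 50% of their sequence and triangles the rest. SPAC186.02c and SPNCRNA.96 stand highest near 48 kb from the right end, and *fex1* and SPAC977.12 fall in both isolates on the left; long error bars that leave the axes belong to genes near the floor.

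The remaining genes were low and did not pass in any comparison. *pfl6*, which encodes a cell surface glycoprotein of the left end, had between 0.318 and 1.83 CPM, and *ftm2*, identical to *ftm3* of the right end over 441 bases, between 0.310 and 2.30 CPM. *ftm3* itself had between 0.046 and 0.926 CPM. The isomerase gene SPAC186.06 of the right end ranged most, from 0 CPM in laboratory replicate 1 to 12.03 CPM in glucose-starved Wilmar-P. Enzyme genes below the filter were the dehydrogenase gene *ayr2* on the left, and on the right the formamidase-like gene SPAC869.04, the amidase gene SPAC869.01 and the L-lactate dehydrogenase gene SPAC186.08c. SPAC186.08c had between 0 and 0.873 CPM, highest in Wilmar-P on molasses (0.873 and 0.631 CPM, against 0.067 and 0.548 CPM in laboratory *S. pombe*).

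The factors that act at chromosome ends were listed as background to these genes, 36 in all, comprising telomere proteins such as Taz1, Rap1 and Pot1 and heterochromatin factors such as Clr4, Swi6 and the RNA interference proteins. All 36 were tested. None passed on molasses between the strains, between the isolates in any medium or in their average, or in glucose-deficient medium in either isolate. Among all genes, 0.645% were higher and 2.46% lower on molasses, and 0.135% to 0.285% passed between the isolates in single media. In their average 0.21% were higher and 0.39% lower. In glucose-deficient medium 2.13% passed in Wilmar-P and 11.4% in Wilmar-A (6.08% with the relabelled library). At such shares, other than that of glucose-deficient Wilmar-A, 0 of 36 says nothing particular about these factors. In edgeR, 3 rose and 5 fell in glucose-starved Wilmar-P, and 4 rose and 7 fell in Wilmar-A (4 and 4 with the relabelled library). Among all genes 15.8% were called higher and 12.1% lower in Wilmar-P, and 15.3% and 21.1% in Wilmar-A. *stn1* (1.72 and 1.44), *rap1* (1.24 and 1.55) and *bqt4* (1.21 and 1.24), for proteins that cap telomeres, bind them and anchor them to the nuclear envelope, rose in both isolates on the log2 scale. *rif1* (-1.39 and -1.55), *chp1* (-1.47 and -1.33) and *chp2* (-1.10 and -1.25), for a telomere-bound protein and 2 heterochromatin factors, fell in both, and *swi6* fell in Wilmar-P (-1.003, adjusted p = 0.00541 by edgeR). The list's median log2 fold change in glucose-starved medium was -0.16 for Wilmar-P and -0.22 for Wilmar-A.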

How the data were processed

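RNA was sequenced from 16 libraries of 8 groups (2 replicates each). The deposited values are raw read counts per gene, made by the authors with TopHat2 and featureCounts, with reads aligned to ASM294v2, reads counted once for every gene they overlapped, and strand used for stranded libraries. How reads aligning to several places were treated is not given in the sources used here. Libraries held a median of 14363853 counts. Counts were tested with edgeR 4.0.16 (R 4.3.3) quasi-likelihood on all 16 libraries, with group means, a term for the labelled library type, TMM scaling and Benjamini-Hochberg adjustment over 6662 genes passing filterByExpr. Genes were called at a log2 fold change beyond 1 in either direction with adjusted p below 0.05. Tests were checked on simulated data. Copies were found by aligning the genes to the reference, and repeated sequence as stretches of 50 bases occurring more than once. Names and sequences came from RefSeq ASM294v3, which matched 61 of the 62 genes. Genes to be described in every library were those called in any of the 8 comparisons (with the library labels as given or with Wilmar-A glucose replicate 1 as unstranded, at most 6 per comparison and end by adjusted p), *tlh1*, the 2 coding genes highest per kb at each end, and copies of these. This gave 29 genes, and the others described, among them SPAC212.08c, SPAC212.12, SPAC212.04c, SPAC977.15, *prl61* and *gdt1*, were added after their values were seen. Members and lists were chosen with earlier results of these data known. Alternatives were DESeq2 1.42.0, other scalings and filters, other treatments of library type, a replicate block and each library left out in turn.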

Additional observations from a re-analysis of the deposited data

How the results depend on the processing

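For the 68 calls on end genes, 23 alternatives gave 1564 values. Of these, 1342 stayed past the threshold in the same direction, 222 no longer passed and 0 changed sign. Many alternatives leave out a library that is not part of the comparison. Those that leave out a library of the comparison leave 1 library in a group. Counts from fits without a library are mostly given without the share of all genes. They show only how far a count depends on that library. Fewer calls held in every alternative. For starvation these were 4 of 13 left and 2 of 10 right calls in Wilmar-P, and 9 of 15 and 4 of 10 in Wilmar-A. On molasses they were 2 of 5 and 1 of 2, and in the average of the media 2 of 6 and 0 of 2. Between the isolates, DESeq2's Wald test called 6 end genes in glucose, 7 in glucose-deficient and 2 in glucose-starved medium, and treating Wilmar-A glucose replicate 1 as unstranded gave 1, 4 and 1. Without a term for library type, 4 end genes were called between Wilmar-P and laboratory *S. pombe*, 1 between the isolates in glucose-deficient medium, and 0 for glucose-deficient over glucose in Wilmar-P and in Wilmar-A. The 12 libraries that behave as stranded, chosen after seeing the data, gave 0 for each of the last 3 comparisons. DESeq2's Wald test called 2 and 4 end genes for glucose-deficient over glucose in Wilmar-P and Wilmar-A. The cause was not tested in these cases.

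Leaving out each library in turn gave 3 to 14 calls between Wilmar-P and laboratory *S. pombe* (14 without laboratory replicate 1, 3 without Wilmar-P molasses replicate 2), 0 to 9 between the isolates in glucose (9 without Wilmar-A glucose replicate 2), 0 to 5 in glucose-deficient and 0 to 2 in glucose-starved medium. For glucose-deficient over glucose the range was 0 to 1 in Wilmar-P and 0 to 8 in Wilmar-A, and for glucose-starved over glucose 8 to 28 and 14 to 27.

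Replicate numbers differ with library type as labelled, and the labels do not tie equal numbers to a shared batch. Under a replicate block, the comparisons of Wilmar-P with laboratory *S. pombe*, of the isolates in the 3 media (glucose first, glucose-starved last), of glucose-deficient over glucose in Wilmar-P and Wilmar-A and of glucose-starved over glucose in Wilmar-P and Wilmar-A gave 7, 0, 2, 0, 1, 2, 23 and 24 calls. The block ended 2 calls on named genes, that of *ftm1* for starvation in Wilmar-P (1.53, adjusted p = 0.0543 by edgeR) and that of SPAC750.08c for starvation in Wilmar-A (1.47, adjusted p = 0.0505 by edgeR). Replicate differences of the groups compared correlated between -0.00844 and 0.957 across 6662 genes.

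Genes within a few counts of the floor of 3 counts cannot show moderate differences at this depth, and counts shared between copies limit every value at the outer ends.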
